A study of Mus musculus with 6 samples.

Results

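The report concerns 9 mouse genes that act on the matrix around cells, out of 21911 protein-coding genes of the GENCODE M21 annotation: Plau, Plaur and Plat of the plasminogen system, the metalloproteinase genes Mmp9, Mmp10, Mmp13 and Adam12, and the matrix genes Tnc and Fn1. They were chosen by name, with earlier results of these data known. Chromatin accessibility was read at each of them as Tn5 cut sites within 1 kb of the gene start (called the promoter here) and in 500-bp tiles over the gene and 50 kb on each side, 300 kb for Tnc. All 9 were found in the annotation. The data are single-cell ATAC-seq, in which the Tn5 transposase cuts open DNA in single nuclei, of horizontal basal cells, the reserve stem cells of the olfactory epithelium, which rest in intact tissue and are activated when the epithelium is damaged. The question of the design is how the chromatin of these cells differs 24 h after injury.

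There were 3 libraries of uninjured mice, labelled control, and 3 of mice taken 24 h after an intraperitoneal dose of methimazole, a drug toxic to the olfactory epithelium. All mice, controls included, carried Krt5CreER and Rosa26 LSL-YFP on both alleles, so that Cre driven by the Krt5 promoter had marked basal cells and whatever descended from them with YFP. YFP-positive, propidium iodide-negative cells of the dorsal epithelium were sorted. Mice of replicate 1 were 8 weeks old, those of replicate 2 were 6 weeks old and those of replicate 3 were 6 to 7 weeks old, in both groups, so age did not separate the groups. The labels do not say how many animals went into a library or when recombination was induced. The sort does not isolate basal cells alone: of 4403 cells that could be clustered, 3593 fell in the 4 clusters named horizontal basal-like from their markers, and the others included cells like sustentacular cells and like immature and mature olfactory neurons.

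The uninjured libraries held 454, 889 and 629 barcodes with at least 2000 fragments (replicates 1 to 3), the injured ones 1338, 420 and 746, and they gave 14825320 to 44875242 cut sites a library. Levels are cut sites per 1000000 (CPM) on the library sizes of the fit. Every promoter window is 2001 bp long, so that promoter levels can be set side by side. Promoters, gene bodies, tiles and annotated starts were fitted separately, each on its own library sizes. For injured replicate 2 that size was 5931167 cut sites in the promoter fit and 15149923 in the tile fit. CPM of different kinds of feature therefore cannot be set against each other. Some libraries share barcodes with identical fragments. Uninjured replicate 3 and injured replicate 3 had 34 barcode sequences in common, and in each of them at least 92.9% of the fragments of the shallower copy were identical to fragments of the deeper one. Other pairs of libraries held 7 more such copies, for 41 copies in all. Some barcode sequences recurred in more than 1 of these pairs, so the 7 copies stand for fewer distinct sequences. In addition, 5 barcodes held over 200000 fragments each, of which a single one made up 14.7% of the fragments of injured replicate 2. Without the copied and the very deep barcodes the counts of members called were the same or lower by 1 (3 promoters, 63 tiles and 1 gene body, against 3, 64 and 1 with them). Over the genome 3.4% of promoters, 6.68% of tiles and 4.47% of gene bodies were called without them, and 3.59%, 6.58% and 6.34% with them.

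As background, urokinase (Plau) and tissue plasminogen activator (Plat) cut plasminogen to plasmin, which digests fibrin and matrix proteins and can activate secreted metalloproteinases; the urokinase receptor (Plaur) holds urokinase at the cell surface. Gelatinase B (Mmp9), stromelysin 2 (Mmp10) and collagenase 3 (Mmp13) are secreted metalloproteinases, and Adam12 is a membrane-bound member of the ADAM family. Tenascin-C (Tnc) and fibronectin (Fn1) are matrix glycoproteins that are laid down in healing wounds. AP-1, the dimer of Fos and Jun proteins, is a well-known regulator of several of these genes, and its binding motif is searched for here as TGANTCA, which reads the same pattern on both strands.

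The promoters that carried such a match are shown first, since a receptor gene and 2 metalloproteinase genes have it in common close to the start. RefSeq's promoter table (GRCm38.p6) held 4 of the 9 members, Plaur, Mmp10, Mmp13 and Tnc. In the 250 bases before the RefSeq start, Plaur, Mmp10 and Mmp13 each held 1 match, and Tnc held none at either of its RefSeq starts. Over all 32851 such windows of the table, 6.75% held a match. The last 120 bases before each start are given 5′ to 3′ on the strand of the gene, all 3 on the plus strand, with the match in capitals.
Plaur, chr7:24462363-24462482: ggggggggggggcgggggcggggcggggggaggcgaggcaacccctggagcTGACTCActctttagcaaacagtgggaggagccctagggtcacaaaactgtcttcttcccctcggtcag
Mmp10, chr9:7502222-7502341: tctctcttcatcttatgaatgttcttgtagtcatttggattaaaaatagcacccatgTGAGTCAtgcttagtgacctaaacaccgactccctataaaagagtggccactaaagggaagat
Mmp13, chr9:7272394-7272513: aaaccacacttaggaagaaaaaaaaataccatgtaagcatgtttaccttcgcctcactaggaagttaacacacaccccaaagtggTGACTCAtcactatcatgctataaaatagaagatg
The match lay 69 to 63 bases before the start in Plaur, 63 to 57 in Mmp10 and 35 to 29 in Mmp13. A match is a stretch of letters and no evidence of binding.

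Of the 9 promoters, 3 were called more accessible after injury (edgeR quasi-likelihood test, Benjamini-Hochberg adjusted p under 0.05 over 17448 promoters) and none was called less accessible: Plau, Plaur and Adam12. Among all promoters tested 2.13% were called higher and 1.47% lower, 3.59% in either direction. With library sizes scaled on 10-kb bins of the genome in place of the promoters themselves, Plaur, Adam12 and Mmp10 were called higher, Plau was not called and Tnc was called lower, but under that scaling 56.2% of all promoters were called lower and 1.64% higher. Scaled on the total of cut sites, the fit called Plaur, Adam12 and Mmp10 higher and no member lower, beside 2.49% higher and 37.6% lower of all promoters. The median log2 change was 0.66 over the 9 members and 0.01 over all promoters. Because the libraries are read as bulk sums here, more cells of an open kind and more open chromatin per cell cannot be told apart.

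The urokinase receptor showed the clearest change of the plasminogen genes. The Plaur promoter (chr7:24461484-24463484) stood at 26.7, 29.3 and 42.0 CPM in the uninjured libraries and at 131, 114 and 82.0 CPM in the injured ones. All injured libraries lay above all uninjured ones, with uninjured replicate 3 the highest of its group and injured replicate 3 the lowest of its own. The mean rose from 32.7 ± 8.17 to 109 ± 24.8 CPM (SD, n = 3 each), a fitted 3.29-fold rise (log2 1.72 ± 0.21 SE, edgeR adjusted p = 0.00465). Plaur stayed called under all 17 alternatives, with log2 changes from 1.16 to 2.07. The share of barcodes with at least 1 cut site in the promoter was 9.69%, 11.1% and 21.8% in the uninjured libraries and 36.7%, 42.6% and 29.4% in the injured ones. Such shares also depend on depth and are not shares of open cells. The median fragments per barcode were 11112.5, 8710 and 21702 in the uninjured libraries and 11994, 19428.5 and 18045.5 in the injured ones.

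Plau, the ligand of that receptor, changed less. Its promoter (chr14:20835660-20837660) stood at 32.3, 31.2 and 29.8 CPM before injury and at 58.3, 49.1 and 39.2 CPM after it. The groups did not overlap, and the uninjured libraries lay much closer together than the injured ones. The log2 change was 0.66 ± 0.16 (edgeR adjusted p = 0.0371). The call was lost under 8 of 17 alternatives, among them leaving out any of the uninjured libraries or injured replicate 1 or 2. Those fits without a library called 0.689%, 0.837%, 3.85%, 0.708% and 0.561% of all promoters. Under the alternatives the log2 change ran from 0.09 to 0.79, and 0.09 came with the 10-kb-bin scaling. That scaling moved the median of all promoters to -0.54, and relative to the median the change of Plau was 0.65 in the fit as described and 0.63 with the bins.

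Plat, the other activator, had the most open promoter of the 3 before injury, at 64.2, 71.6 and 60.9 CPM, and stood at 80.6, 87.0 and 65.1 CPM after it. The groups overlapped, and the log2 change of 0.24 ± 0.12 did not pass (edgeR adjusted p = 0.261).

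Among the metalloproteinases, Adam12 had the steepest called promoter of the 9. The window (chr7:134231146-134233146) held 7, 10 and 14 cut sites in the uninjured libraries and 174, 84 and 89 in the injured ones, which is 1.45, 0.978 and 1.37 CPM against 15.2, 14.2 and 8.88 CPM. It was close to shut in every uninjured library, and no injured library came near that level. The rise was 10.1-fold (log2 3.34 ± 0.39, edgeR adjusted p = 0.000826), which placed Adam12 12th of all promoters by p. It stayed called under all 16 alternatives that tested it. In the horizontal basal-like cells alone the log2 change was 5.46 (adjusted p = 2.56e-05). In those cells 4 members' promoters were called, the fourth being Mmp10, beside 7.31% of all promoters in either direction. Over all barcodes a cut site in the window was seen in 0.45% to 0.795% of barcodes before injury and in 3.62% to 6.67% after it. Most barcodes thus had none in either group, at depths that differed between libraries.

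The 3 secreted metalloproteinases had low promoter levels in both groups. The Mmp10 promoter (chr9:7501352-7503352) held 1, 5 and 2 cut sites in the uninjured libraries and 20, 16 and 17 in the injured ones, or 0.207, 0.489 and 0.196 against 1.75, 2.70 and 1.70 CPM. The groups were well apart, but the counts are small: the log2 change of 2.64 ± 0.72 missed the threshold (edgeR adjusted p = 0.0569). It passed under 4 of 14 alternatives, namely both other scalings, the replicate number as a block and the horizontal basal-like cells alone (adjusted p = 0.0432 in these cells). Its highest adjusted p under the alternatives was 0.183.

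Mmp13 had 0, 6 and 10 cut sites before injury and 23, 7 and 10 after it at its promoter (chr9:7271514-7273514), and its log2 change of 1.24 ± 0.78 did not pass (edgeR adjusted p = 0.374). The 0 of uninjured replicate 1 allows up to 0.621 CPM, counting 3 cut sites as its limit. Of the 23 in injured replicate 1, 12 came from the very deep barcodes, and all 7 of injured replicate 2 did.

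At Mmp9 the result turned on which start was read. The outermost annotated start, of transcript Mmp9-203, gave 1.24, 2.64 and 4.80 CPM before injury and 3.14, 2.70 and 5.99 CPM after it, which overlapped (log2 0.41 ± 0.52, edgeR adjusted p = 0.686). Without injured replicate 3 its log2 change was -0.03. When every annotated start of every gene was fitted instead, the start of Mmp9-201, at chr2:164948219, stood at 1.00, 1.73 and 1.42 CPM in the uninjured libraries and at 6.40, 3.99 and 3.83 CPM in the injured ones. There the groups were apart, with a log2 change of 1.74 ± 0.42 (edgeR adjusted p = 0.0316). The starts of Mmp9-202 and Mmp9-204 did not pass. In that fit the second start of Adam12 (Adam12-201) also passed, at log2 1.33 ± 0.35 (adjusted p = 0.0411), as did Mmp10, just (log2 2.58 ± 0.71, adjusted p = 0.04999), while Plau did not (adjusted p = 0.0518). Of all 37886 starts tested there, 5.35% were called in either direction.

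The matrix genes had open promoters in both groups. At Tnc (chr4:64046015-64048015) the uninjured libraries stood at 111, 108 and 43.1 CPM and the injured ones at 63.3, 45.2 and 42.4 CPM. Uninjured replicates 1 and 2 were the high ones, and uninjured replicate 3 lay among the injured libraries. The log2 change of -0.77 ± 0.38 did not pass (edgeR adjusted p = 0.305), but it was -1.12 without uninjured replicate 3 (adjusted p = 0.00111). With the 10-kb-bin scaling, which called 56.2% of all promoters lower, it was -1.34 (adjusted p = 6.91e-09), yet relative to the median of all promoters it was -0.79 in the fit as described and -0.80 with the bins. Fn1 (chr1:71652200-71654200) stood at 45.1, 39.6 and 57.7 CPM before injury and at 50.5, 61.5 and 50.0 CPM after it. Its groups overlapped, and its log2 change of 0.18 ± 0.15 did not pass (adjusted p = 0.520).

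**Figure D1:**
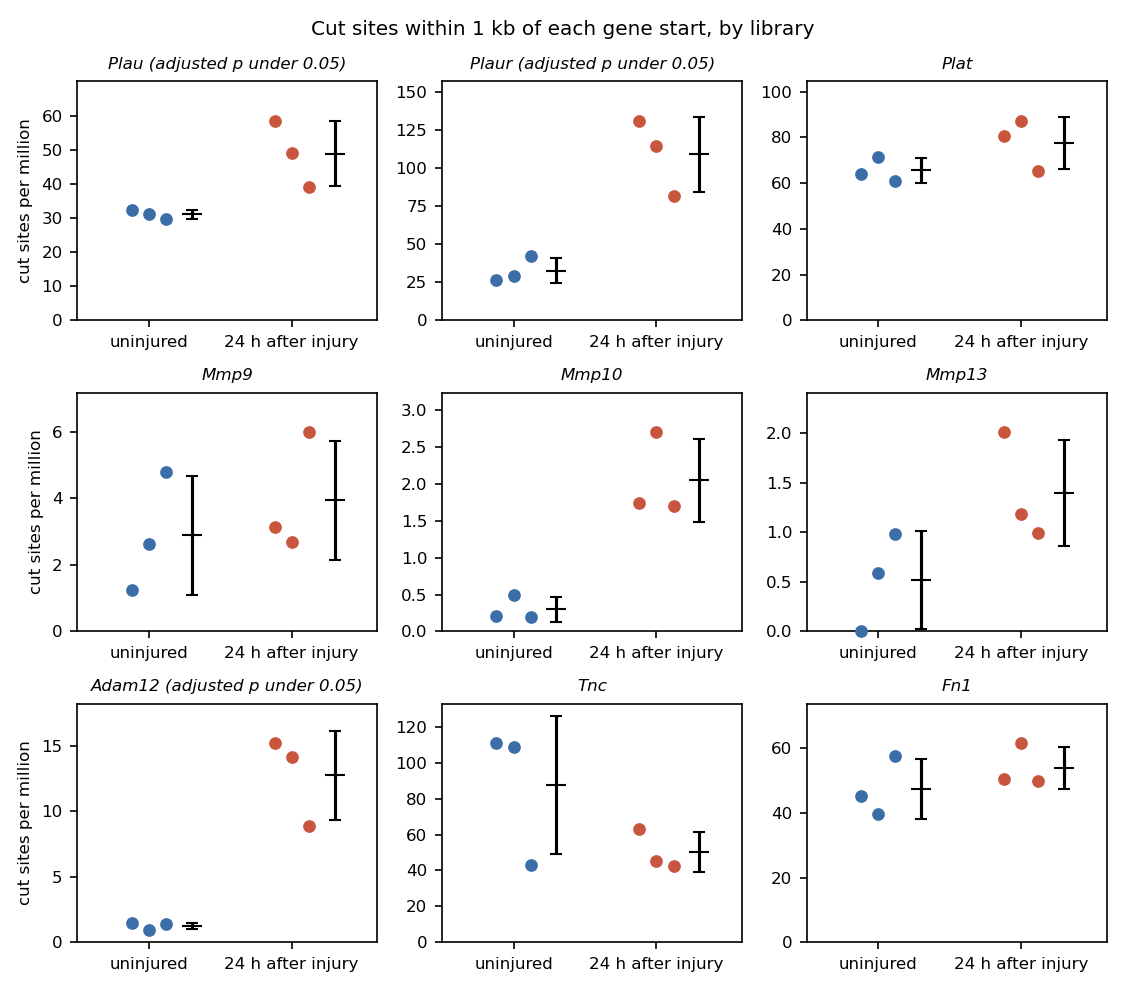
Cut sites (CPM) within 1 kb of each gene start (vertical axes, linear from 0, a separate scale for each gene) in the 3 uninjured libraries (blue points) and the 3 libraries taken 24 h after injury (red points); black marks give the mean and SD of each group. Plaur, Plau and Adam12 passed the test; at Tnc uninjured replicates 1 and 2 stood at 111 and 108 CPM and uninjured replicate 3 at 43.1 CPM.

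Summed over the gene body and 2 kb before it, 1 of the 9 members was called higher and none lower, beside 3.57% called higher and 2.77% lower of 20337 gene bodies, 6.34% in either direction. It was Plaur, at 33.3, 28.1 and 63.2 CPM before injury and 158, 111 and 98.7 CPM after it (log2 1.56 ± 0.29, edgeR adjusted p = 0.0281). The call at Plaur was lost without uninjured replicate 1 or 2 or injured replicate 1 or 2 and with barcodes thinned to 2000 fragments, and its highest adjusted p under the alternatives was 0.125. Over the whole genome those fits without a library called 0, 0, 1 and 0 bodies, and the thinned fit called 1.84%. The log2 change of the Plaur body ran from 1.19 to 2.01 under the alternatives. The body of Adam12 is 348948 bp long, and its log2 change of 0.59 ± 0.24 did not pass (adjusted p = 0.136), against 1.74 in the horizontal basal-like cells alone (adjusted p = 0.00162). The body of Plau missed the threshold narrowly (log2 0.64 ± 0.17, adjusted p = 0.0522) and passed under 4 of 16 alternatives, namely DESeq2, the replicate block, the horizontal basal-like cells alone and without injured replicate 3 (lowest adjusted p = 0.00901).

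The tiles showed where in each locus the change lay. A tile was taken as open when its mean level over the libraries was at least 5 times the median tile, which left 539 open tiles at the 9 loci, of which 461 had enough counts to be tested. After injury 63 of them were called higher and 1 lower, beside 5.35% called higher and 1.23% lower of 419780 tiles tested over the genome, 6.58% in either direction. With adjoining open tiles merged into regions, 23 of the members' 172 tested regions (13.4%) were called higher and 1 lower, beside 5.61% higher and 1.45% lower of all regions, 7.05% in either direction. The median log2 change was 0.52 over the members' tested tiles and 0.06 over all. With the 10-kb-bin scaling 41 members' tiles were higher and 11 lower, with the total of cut sites 50 and 6; these scalings moved the median of all tiles to -0.36 and -0.11, and called 3.17% of all tiles higher and 4.66% lower, and 4.31% and 2.32%. Leaving out a library gave from 23 called tiles (without injured replicate 2) to 100 (without injured replicate 3), with 34, 37 and 29 without uninjured replicate 1, uninjured replicate 2 and injured replicate 1. The same fits called 1.21% and 9.6%, and 2.1%, 2.35% and 2.06%, of all tiles. Every injured library lay above every uninjured one in 148 of the members' 461 tested tiles (32.1%), beside 15.5% of all tiles tested. The members were chosen with earlier results of these data known, and Tnc alone was read over 300 kb on each side. The shares set beside those of the genome are therefore descriptions and no test of the members. A tile is assigned to a member by distance alone, and 18 of the 63 had the start of another protein-coding gene nearer than that of the member.

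The called tiles were spread unevenly. Adam12 had 16 of 39 tested tiles called higher, Plaur 19 of 81, Plau 10 of 64, Tnc 13 of 115 with 1 lower, Plat 4 of 69 and Mmp9 1 of 56. Fn1 had 0 of 34. Mmp10 and Mmp13 had 2 and 1 tested tiles, none of them called. For Fn1, Mmp10 and Mmp13 the tile of smallest p was 77.4 kb, 24.4 kb and 32.3 kb from the start, with edgeR adjusted p of 0.0951, 0.833 and 0.055. The Mmp13 tile (log2 2.30) was called higher under 3 of 15 alternatives, namely DESeq2, the replicate block and without injured replicate 3 (lowest adjusted p = 0.0137). Thus the fibronectin gene had no call at its promoter, its body or its tiles, and its highest tile change was log2 1.38. The Fn1 tile of smallest p was called under 2 of 16 alternatives, with the replicate block (log2 1.51, adjusted p = 0.0496) and without uninjured replicate 3 (log2 2.11, adjusted p = 0.0123).

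**Figure D2:**
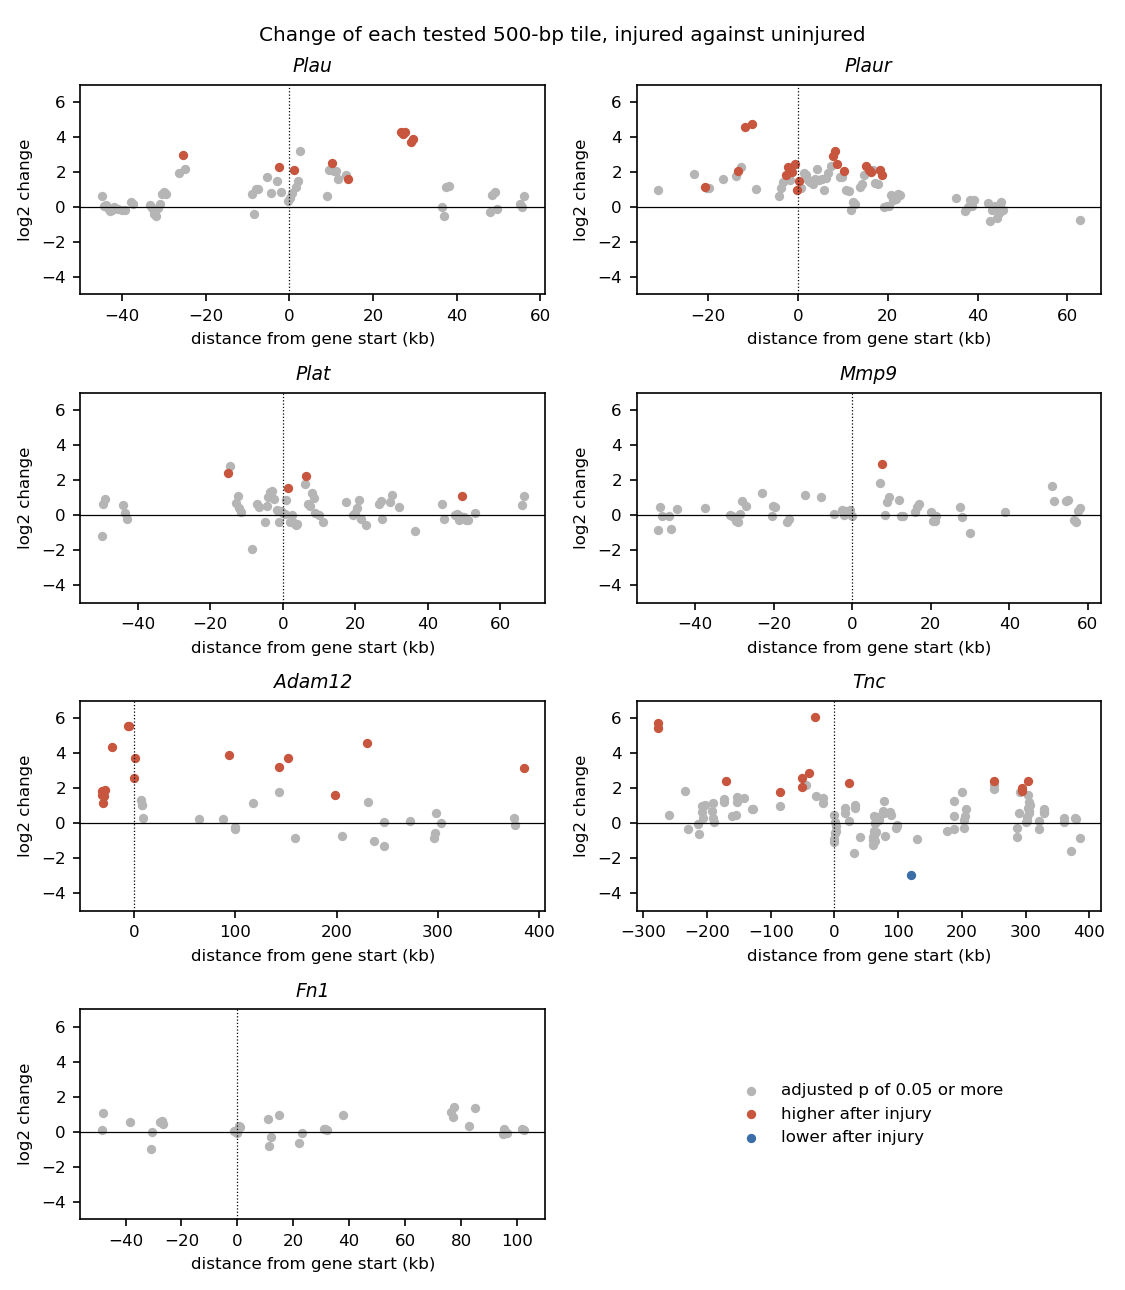
Log2 change of each tested 500-bp tile, injured against uninjured (vertical axis), by its distance from the start of the gene in kb (horizontal axis, negative before the start) for the 7 members with more than 2 tested tiles; grey points did not pass, red points were called higher and the blue point lower. Adam12 had 16 of 39 tiles called higher and Fn1 0 of 34.

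Sequence is printed for the tiles that the results turn on: of the called tiles with the smallest p at each member, those that held an AP-1 match and whose printed stretch lay outside exons. Each is 121 bases of GRCm38, plus strand, 5′ to 3′, centred on the match nearest the middle of the tile, with the match in capitals. The distance is from the start of the member to the tile.
Plau, 2.41 kb before the start, chr14: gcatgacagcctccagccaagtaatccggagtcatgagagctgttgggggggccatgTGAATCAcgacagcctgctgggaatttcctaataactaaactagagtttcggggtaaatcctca
Plau, 10.1 kb after the start, chr14: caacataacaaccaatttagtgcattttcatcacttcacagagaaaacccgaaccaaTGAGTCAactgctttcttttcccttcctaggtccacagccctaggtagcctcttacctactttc
Plaur, 18.3 kb after the start, chr7: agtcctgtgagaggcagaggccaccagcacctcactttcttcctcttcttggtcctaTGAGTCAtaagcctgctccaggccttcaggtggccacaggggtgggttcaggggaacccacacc
Mmp9, 7.47 kb after the outermost start, chr2: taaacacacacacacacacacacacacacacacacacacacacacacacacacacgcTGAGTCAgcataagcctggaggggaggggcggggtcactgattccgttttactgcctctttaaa
Adam12, 5.61 kb before the start, chr7: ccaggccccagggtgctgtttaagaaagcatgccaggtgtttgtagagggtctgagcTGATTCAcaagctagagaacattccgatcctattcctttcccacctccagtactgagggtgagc
Adam12, 29.1 kb before the start, chr7: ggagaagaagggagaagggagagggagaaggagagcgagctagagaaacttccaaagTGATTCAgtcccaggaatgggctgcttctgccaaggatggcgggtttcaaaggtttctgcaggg
Adam12, 31.6 kb before the start, chr7: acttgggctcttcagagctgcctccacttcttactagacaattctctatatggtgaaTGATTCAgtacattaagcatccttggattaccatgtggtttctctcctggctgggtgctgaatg
Tnc, 31.2 kb before the start, chr4: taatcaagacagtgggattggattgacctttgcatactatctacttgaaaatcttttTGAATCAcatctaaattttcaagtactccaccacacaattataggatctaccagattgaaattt
Tnc, 277 kb before the start, chr4: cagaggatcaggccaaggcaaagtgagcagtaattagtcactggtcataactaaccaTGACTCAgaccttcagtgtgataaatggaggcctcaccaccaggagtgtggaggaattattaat

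At Plau the tile of smallest p lay beyond the gene, 27.1 kb after the start (chr14:20863501-20864000, intergenic). It held 0.176, 0.617 and 0.325 CPM in the uninjured libraries and 10.9, 8.32 and 2.99 CPM in the injured ones (log2 4.19 ± 0.54, edgeR adjusted p = 0.00212). It went from near closed to open, with injured replicate 3 well under the other injured libraries. The tile with the first printed Plau sequence (chr14:20834001-20834500) stood at 1.05, 0.699 and 1.14 CPM and then 5.71, 5.08 and 3.30 CPM (log2 2.29, adjusted p = 0.0044). Within that printed stretch the cut sites numbered 3, 3 and 11 before injury and 57, 25 and 24 after it. The tile 10.1 kb after the start (chr14:20846501-20847000) had a log2 change of 2.51 (adjusted p = 0.00499).

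At Plaur, 9 of the 19 called tiles lay before the start and 6 within the gene. The tile 0.734 kb before the start (chr7:24461501-24462000), which lies inside the promoter window and so shares its cut sites, stood at 2.29, 3.62 and 2.64 CPM and then at 21.1, 16.0 and 10.9 CPM (log2 2.47 ± 0.27, edgeR adjusted p = 0.0015). A tile 11.7 kb before the start (chr7:24450501-24451000) overlaps an exon of Irgc1, whose start is nearer. It went from 0.0879, 0.165 and 0.365 CPM to 5.51, 6.67 and 4.19 CPM (log2 4.56, adjusted p = 0.00141). The tile of the printed Plaur sequence 18.3 kb after the start (chr7:24480501-24481000), nearer to the start of Cadm4, held 1.85, 1.85 and 2.31 CPM and then 10.1, 10.2 and 6.09 CPM (log2 2.12, adjusted p = 0.00209). Its printed stretch had 10, 22 and 24 cut sites before injury and 177, 82 and 80 after it.

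At Plat, whose promoter did not pass, 4 tiles were called higher. The tile 6.52 kb after the start, in an intron (chr8:22764001-22764500), stood at 2.29, 2.84 and 1.50 CPM before injury and at 17.6, 8.65 and 4.89 CPM after it (log2 2.24 ± 0.43, edgeR adjusted p = 0.0105). Injured replicate 1 was by far the highest. The tile 1.52 kb after the start overlaps an exon and had a log2 change of 1.55 (adjusted p = 0.00967), and the tile 49.5 kb after it, nearer the start of Ap3m2, of 1.11 (adjusted p = 0.0323). The first and second of these lost their call under 3 of 16 alternatives, namely when injured replicate 1 or 2, or uninjured replicate 1, was left out (highest adjusted p = 0.0589 and 0.0827). The third lost it under 6, with both other scalings and without uninjured replicate 1 or 2 or injured replicate 1 or 2 (highest adjusted p = 0.203).

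The single called tile of Mmp9 (chr2:164948001-164948500) holds the start of Mmp9-201, the start that passed in the fit of every annotated start. This tile lies inside the window of 1 kb around that start, so the calls share cut sites. It had 1, 1 and 3 cut sites in the uninjured libraries and 17, 11 and 19 in the injured ones (log2 2.94 ± 0.70, edgeR adjusted p = 0.0291). The call was lost under 6 of 13 alternatives, with the 10-kb-bin scaling and without uninjured replicate 1 or 2 or any of the injured libraries (highest adjusted p = 0.142). The printed stretch, just before that start, has a run of CA repeats right before the AP-1 match, and held 0, 0 and 2 cut sites before injury and 8, 7 and 8 after it.

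At Adam12, 9 of the 16 called tiles lay before the start and 7 within the gene. The tile 5.61 kb before the start (chr7:134237501-134238000) held 0, 2 and 2 cut sites in the uninjured libraries and 190, 36 and 36 in the injured ones (log2 5.59 ± 0.79, edgeR adjusted p = 0.00284). The uninjured libraries had 4 cut sites there in all, and injured replicate 1 was the highest also in CPM, at 6.35 CPM beside 2.38 and 1.40 CPM. A second stretch, 31.6 kb before the start (chr7:134263501-134264000), was already open before injury, at 8.09, 7.69 and 5.32 CPM, and stood at 29.7, 18.1 and 18.0 CPM after it (log2 1.65 ± 0.23, adjusted p = 0.00268). The tile 29.1 kb before the start went the same way (log2 1.92, adjusted p = 0.00406). With barcodes thinned to 2000 fragments neither was called, at log2 1.04 (adjusted p = 0.0761) and 0.84 (adjusted p = 0.426). So Adam12 had both tiles that were open before injury and gained, and tiles that were close to shut.

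At Tnc the calls lay away from the promoter. Far before its start, 2 adjoining tiles (chr4:64324501-64325000 and chr4:64324001-64324500, 278 kb and 277 kb away, intergenic, with Tnc the nearest start) held 0, 5 and 4 and 0, 2 and 4 cut sites in the uninjured libraries. In the injured libraries they held 366, 129 and 94 and 207, 69 and 51. The log2 changes were 5.75 ± 0.61 (edgeR adjusted p = 0.00147) and 5.46 ± 0.68 (adjusted p = 0.00191). A tile 31.2 kb before the start (chr4:64078001-64078500) held 2, 1 and 0 cut sites and then 206, 49 and 40 (log2 6.09 ± 0.86, adjusted p = 0.00285), the largest fitted change of all the members' tested tiles. Its printed stretch, which runs past the edge of the tile, held none before injury and only 10, 3 and 0 after it. The single tile called lower lay 121 kb after the start (chr4:63926001-63926500), with Tnfsf8 the nearest start, and fell from 12, 23 and 17 cut sites to 5, 0 and 3 (log2 -2.98 ± 0.69, adjusted p = 0.0257), a call lost without uninjured replicate 1 or 2 or injured replicate 1 or 2. These gains therefore stood beside a promoter that did not pass in either direction. Without the copied and very deep barcodes the named tiles of Plau and Plaur, the Adam12 tile 5.61 kb before the start and the 3 Tnc tiles called higher stayed called.

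**Figure D3:**
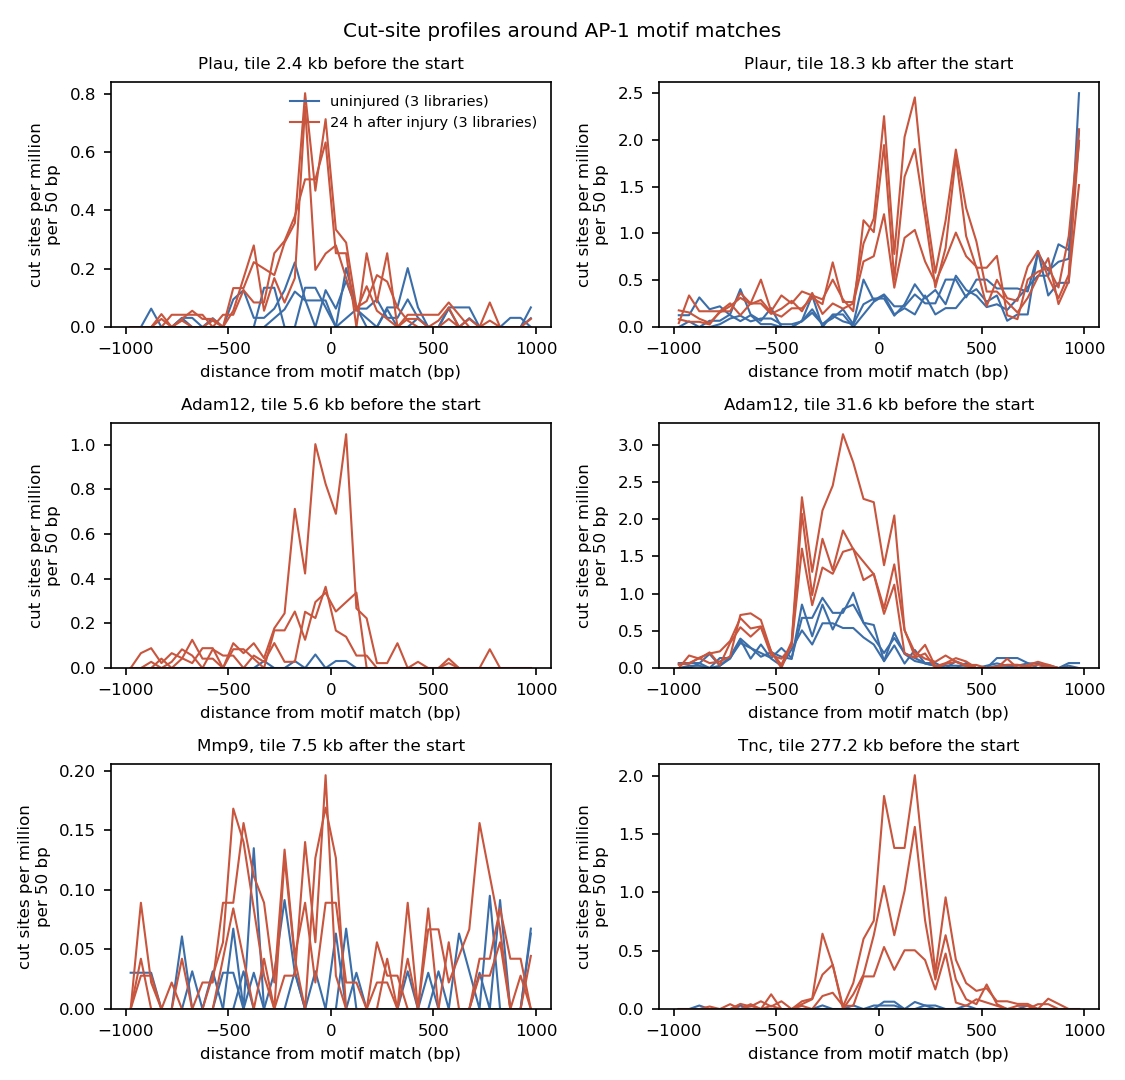
Cut sites (CPM) in 50-bp bins (vertical axes, linear from 0) within 1 kb of an AP-1 match (distance in bp, horizontal axes) in 6 of the called tiles, with 1 line for each library, blue for uninjured and red for 24 h after injury. At the Tnc tile 277 kb before the start and the Adam12 tile 5.61 kb before the start the uninjured lines lie close to 0, and at the Adam12 tile 31.6 kb before the start they form a lower peak of the same outline.

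AP-1 matches were more frequent in the tiles that rose, at the members and over the genome alike. Of the members' tiles called higher, 30 of 63 (47.6%) held TGANTCA, beside 21.7% of their tiles called in neither direction. Over the genome it was found in 59.7% of tiles called higher, in 7.45% of tiles called lower and in 20.3% of all tested tiles, so that the share among the members' tiles that rose lay between the last and the first of these. The motif of TEAD factors (GGAATG, either strand) was in 39.7% of the members' tiles called higher, 28.5% of their tiles called in neither direction, 29.5% of the genome's tiles called higher and 25.9% of all tiles tested. The RUNX motif (TGTGGT, either strand) was in 31.7%, 32.5%, 40.4% and 33.4% of these, and the NF-kB motif, searched on both strands, in 11.1% (7 of 63), 5.29%, 6.42% and 6.17%. These shares are descriptions, and they cannot be assigned to a factor.

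A list of 92 further genes of the plasminogen system, metalloproteinases and their inhibitors, other ADAM proteases, matrix proteins and their receptors set the members in context. Of 80 tested promoters, 3 were called higher and 4 lower, beside 2.13% and 1.47% of all promoters, and the median log2 change was 0.08 against 0.01 for all promoters. The split was 2 higher and 36 lower with the 10-kb-bin scaling, beside 56.2% lower of all promoters, and 5 and 24 with the total of cut sites, beside 37.6% lower of all promoters. Fewer related promoters were called without uninjured replicate 1 (0), uninjured replicate 2 (3), injured replicate 1 (2) or injured replicate 2 (1), and 13 without injured replicate 3; these fits called 0.689%, 0.837%, 0.708%, 0.561% and 7.59% of all promoters. Of 91 tested gene bodies, 9 were called higher and 5 lower, beside 3.57% and 2.77% of all gene bodies. Every gene body of the list named here as called lost its call without uninjured replicate 1 or 2 or injured replicate 1 or 2; over the whole genome those fits called 0, 0, 1 and 0 bodies. In the plasminogen system none of 13 promoters was called in either direction and 2 of 16 bodies were higher, S100a10 (a plasminogen receptor subunit, log2 0.68 ± 0.14, edgeR adjusted p = 0.0345) and St14 (named outside the rule; matriptase, log2 0.51, adjusted p = 0.0309). The plasminogen gene Plg itself was too little open at its promoter to be tested, and its body had a log2 change of -0.83 (adjusted p = 0.0563). Serpinb2, an inhibitor of plasminogen activators, had a promoter log2 change of 1.57 with overlapping groups (adjusted p = 0.0705). It was called higher under 6 of 16 alternatives, namely DESeq2, both other scalings, the horizontal basal-like cells alone and without uninjured replicate 3 or injured replicate 3, with log2 changes up to 3.14 (lowest adjusted p = 0.0104).

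Of 5 inhibitors of metalloproteinases, 2 were called lower at the promoter and none higher, beside 1.47% lower and 2.13% higher of all promoters. Timp3, a matrix-bound inhibitor, stood at 98.1, 73.6 and 78.0 CPM at its promoter in the uninjured libraries and at 44.9, 62.7 and 47.7 CPM in the injured ones (log2 -0.69 ± 0.14, edgeR adjusted p = 0.0206), and its gene body was also called lower (log2 -0.61, adjusted p = 0.0274). Timp2, named outside the rule, was called lower at its promoter too (log2 -0.51, adjusted p = 0.0324). The promoter call of Timp2 was lost under 7 of 17 alternatives, without any of the uninjured libraries or injured replicate 1 or 2, with thinned barcodes and in a window of 500 bp on each side. That of Timp3 was lost under 3, with thinned barcodes and without uninjured replicate 1 or injured replicate 1. Timp1 had a log2 change of 0.63 and Reck, a membrane-bound inhibitor, of -0.13, and neither passed (adjusted p = 0.0948 and 0.575). Timp1 was called higher under 4 of 17 alternatives, namely DESeq2, the replicate block, the horizontal basal-like cells alone and without injured replicate 3 (lowest adjusted p = 0.00662), and Reck was called lower with both other scalings. Of the proteases, Adam8 was called higher at its promoter, from 23.0, 14.7 and 27.5 CPM to 65.2, 61.5 and 44.4 CPM (log2 1.40 ± 0.22, adjusted p = 0.00732), and in its body (adjusted p = 0.0153); the promoter call was lost without uninjured replicate 1 or injured replicate 2. The bodies of Mmp28 (log2 0.75, adjusted p = 0.0379) and Mmp24 (log2 0.59, adjusted p = 0.0337) rose, and that of Adam9, named outside the rule, fell (log2 -0.45, adjusted p = 0.0415). The promoter of Mmp14, which encodes a membrane-bound metalloproteinase, had a log2 change of 0.05 (adjusted p = 0.852). It was -0.50 with the 10-kb-bin scaling and -0.24 with the total of cut sites, which moved the median of all promoters to -0.54 and -0.28. Its direction thus turned with the scaling, as did that of the median.

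Among matrix proteins and receptors, the bodies of Nid1 (nidogen, a basement membrane protein, log2 1.05, edgeR adjusted p = 0.0211), Lama3 (a laminin chain, log2 0.73, adjusted p = 0.0306) and Tnr (tenascin-R, log2 0.72, adjusted p = 0.0242) rose and that of Loxl2 (a lysyl oxidase that cross-links collagen) fell (log2 -1.15, adjusted p = 0.0283). Nid1 lost its call under 8 of 16 alternatives, among them the horizontal basal-like cells alone and the removal of copied and very deep barcodes, and Lama3 and Tnr lost theirs under 6 each. The promoter of Cd44, which encodes a receptor for hyaluronan, was called higher, from 35.2, 41.4 and 42.3 to 77.3, 68.1 and 54.2 CPM (log2 0.74 ± 0.14, adjusted p = 0.0127), a call lost under 6 of 17 alternatives, with the 10-kb-bin scaling, with thinned barcodes and without uninjured replicate 1 or 2 or injured replicate 1 or 2. The body of Itgb3, an integrin chain that binds fibronectin and vitronectin, rose (log2 1.22, adjusted p = 0.0294), and that of Itga3, a laminin-binding chain, fell (log2 -0.52, adjusted p = 0.0453). The other calls of the list, named outside the rule, were the promoters of Itgb1 (the integrin chain shared by most matrix receptors, log2 -0.38, adjusted p = 0.0226), Lama5 (a laminin chain, log2 -0.37, adjusted p = 0.0481) and Itgb8 (an integrin chain, log2 0.45, adjusted p = 0.0491) and the body of Ccn1 (a matricellular protein, log2 -0.51, adjusted p = 0.0497). The promoter calls were lost under 4, 10 and 10 of 17 alternatives, and Itgb8 turned direction with the 10-kb-bin scaling; that of the Ccn1 body was lost under 9 of 16.

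Over the 6 libraries the promoter most like that of Plaur was Tubb4a, with a Pearson's r of 0.998 among 14287 promoters compared, and those most like Adam12 were Spata4 and Mrps15, at 0.999 and 0.997. Plau was most like Trim13 and Abcb1a (0.995 and 0.994), and Tnc most like Atp5e and Slc45a3 (0.992 and 0.989). With 6 libraries, all shared by the promoters compared, these figures are descriptions.

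The libraries differed in which cells they held, and the members differed between the clusters. Cluster 1, horizontal basal-like, came almost wholly from uninjured libraries (1016 of 1033 cells), and cluster 7, also horizontal basal-like, from injured ones (1381 of 1390). Cluster 2, named horizontal basal-like as well, had 354 uninjured and 632 injured cells, and cluster 8 had 165 of its 184 cells from uninjured replicate 3. The name of cluster 2 is the least secure. Over gene bodies 7 of the 8 horizontal basal markers were higher there than in the mean of the other clusters, by a log2 difference of at most 1.05 (Icam1), but so were 5 of the 6 respiratory and gland markers, by up to 2.37 (Bpifa1). None of its 10 leading genes, which include Prss30, Reg3g and Adh7, was a listed marker. Uninjured replicate 3 had fewer cells of cluster 1 (152) than uninjured replicates 1 and 2 (317 and 547). Injured replicate 3 stood apart as well: 20.6% of its cells were in cluster 7, against 74.5% and 61.6% in injured replicates 1 and 2, with 42.0% in cluster 2 and 14.7% and 13.4% in the immature and mature neuron-like clusters. The part of this make-up in the values of injured replicate 3 was not tested. Levels by cluster are pooled over libraries, are CPM of all cut sites and so lie on another scale than those above. They carry 95% Poisson intervals for counting error only. These count the 2 ends of a fragment as independent, and are too narrow where both ends fall in the window.

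Plaur was least open in cluster 1 of the horizontal basal-like clusters. Its promoter stood at 6.92 CPM (interval 6.06 to 7.87) in cluster 1, 27.7 (26.1 to 29.4) in cluster 2, 39.0 (37.3 to 40.7) in cluster 7 and 18.9 (16.4 to 21.6) in cluster 8. Clusters 2 and 8 both hold uninjured cells, and cluster 8 mostly so. The Adam12 promoter was different. It stood at 5.92 CPM (5.29 to 6.61) in cluster 7, and at 0.0589 (0.00713 to 0.213), 0.195 (0.0841 to 0.384) and 0.186 (0.0225 to 0.671) in clusters 1, 2 and 8. In the neuron-like and sustentacular-like clusters it stood at 1.07 to 1.88 CPM. The Adam12 gene body was not highest in cluster 7, where it stood at 75.2 CPM. It stood at 97.2 CPM in the immature neuron-like cluster 3, 71.8 in the mature neuron-like cluster 6 and 152 in the unnamed cluster 5. In clusters 4, 2, 8 and 1 it stood at 48.1, 32.2, 24.5 and 16.6 CPM. The Tnc tile 278 kb before the start stood at 10.4 CPM (9.51 to 11.3) in cluster 7, at 1.02 (0.622 to 1.57) in the immature neuron-like cluster 3, and at 0.236, 0.195 and 0.0929 in clusters 1, 2 and 8. The Adam12 tile 5.61 kb before the start stood at 4.80 CPM (4.24 to 5.43) in cluster 7 and at 0.0589 and 0.0243 in clusters 1 and 2.

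The Tnc promoter ran the other way. It was highest in cluster 1, at 48.2 CPM (45.8 to 50.5), followed by the sustentacular-like cluster 4 at 33.7 (29.7 to 38.2), and stood at 16.2 (15.1 to 17.3) in cluster 7 and 10.9 in cluster 2. The Tnc tile called lower stood at 3.22 CPM in cluster 4, 0.707 in cluster 1 and 0.112 in cluster 7. Cluster 4 had 188 uninjured and 37 injured cells. Fn1 was highest at its promoter in clusters 2 and 8, at 25.1 and 20.2 CPM, against 12.8 in cluster 1 and 11.5 in cluster 7. The Mmp10 tile 24.4 kb after the start, which did not pass in the bulk fit, stood at 2.92 CPM (2.42 to 3.49) in cluster 2, 4.74 (3.53 to 6.23) in cluster 8 and 0.503 (0.331 to 0.731) in cluster 7, while cluster 1 had 0 cut sites there (interval 0 to 0.109). The called Mmp9 tile was highest in the mature neuron-like cluster 6, at 1.06 CPM from only 8 cut sites. It stood at 0.428 CPM in cluster 7, 0.268 in cluster 2 and 0.0295 in cluster 1. The Plat promoter stood between 16.6 and 26.1 CPM in the clusters other than the unnamed cluster 5.

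**Figure D4:**
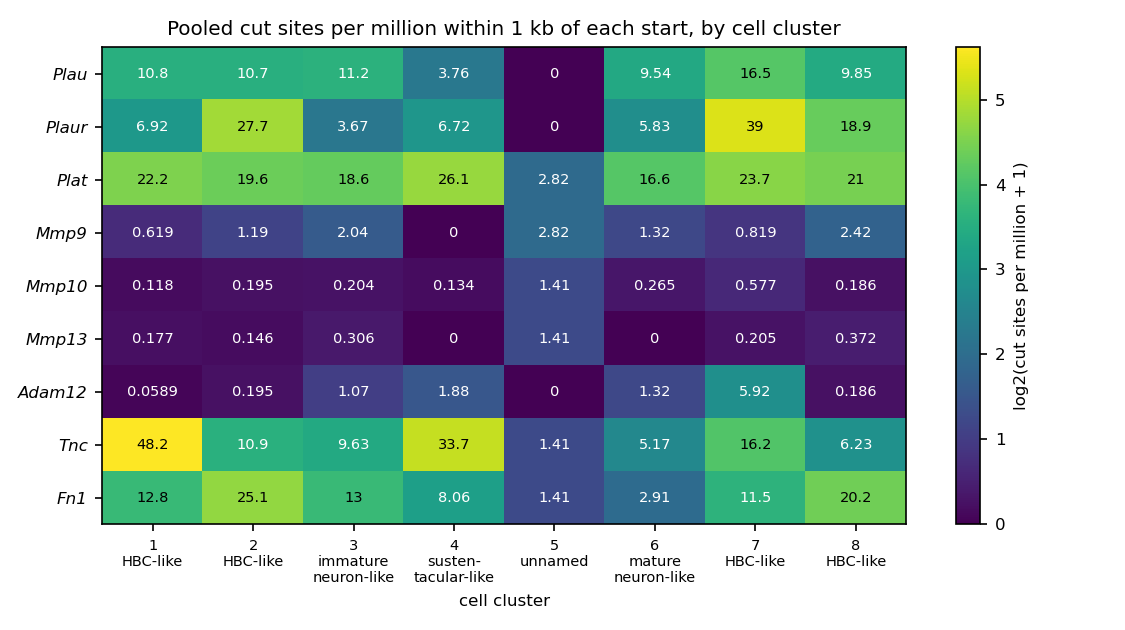
Cut sites (CPM) within 1 kb of each member's start (numbers in the cells; colour gives log2 of the value plus 1), pooled over libraries for each of the 8 cell clusters; HBC-like stands for horizontal basal-like. Adam12 is highest in cluster 7 (5.92 CPM), Plaur in clusters 7 and 2 (39.0 and 27.7 CPM) and Tnc in cluster 1 (48.2 CPM); the unnamed cluster 5 rests on few cut sites.

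Cluster 2, whose markers were mixed, had cells from all 6 libraries, and there the levels could be set side by side by library, without a test. Its Plaur promoter stood at 27.0, 27.1 and 21.6 CPM in uninjured cells and at 33.0, 32.3 and 27.8 CPM in injured ones, apart but by little. Its Tnc promoter stood at 5.25, 8.14 and 6.08 CPM before injury and at 17.3, 11.3 and 12.5 CPM after it, so that within this cluster the injured libraries were the higher ones, the opposite of the bulk values. The Adam12 promoter stayed low in both, at 0.25 ± 0.433 and 0.189 ± 0.164 CPM (SD, n = 3). These levels rest on 2, 0 and 0 cut sites before injury and 2, 0 and 4 after it. The Adam12 gene body was apart, at 22.4 ± 3.32 CPM before injury and 40.1 ± 7.17 CPM after it, with every injured library the higher. The Adam12 tiles 31.6 kb and 29.1 kb before the start overlapped, at 13.5 ± 7.41 and 17.0 ± 1.38 CPM and at 8.88 ± 4.02 and 5.83 ± 0.78 CPM. How many of all features were apart within this cluster was not counted. In the bulk sums 13.8% of all promoters, 15.6% of all bodies and 15.5% of all tiles tested were apart with the injured libraries higher. The Plau promoter overlapped, at 12.1 ± 2.55 and 9.89 ± 1.67 CPM. The Plau tile 27.1 kb after the start was apart, at 0.217 ± 0.287 and 2.13 ± 1.11 CPM. Those 2.41 kb before and 10.1 kb after the start overlapped. At Plaur the tile 11.7 kb before the start was apart, at 0.217 ± 0.376 and 1.30 ± 0.46 CPM. So was the tile 0.734 kb before it, at 5.19 ± 1.90 and 8.12 ± 0.298 CPM. The Plaur tile 18.3 kb after the start and the Plaur gene body overlapped. Of the Plat tiles, the one 1.52 kb after the start stood at 1.23 ± 0.12 CPM and then at 3.56 ± 0.016 CPM. It held only 110 cut sites over the libraries, so the SD of 0.016 CPM is no measure of precision. The groups overlapped at the Plat tile 6.52 kb after the start (0.937 ± 0.619 and 1.25 ± 0.294) and at that 49.5 kb after it (5.78 ± 1.76 and 5.11 ± 1.13). The Tnc tiles 278 kb and 277 kb before the start were at 0 CPM before injury. After it they stood at 0.308 ± 0.096 and 0.192 ± 0.048 CPM, from only 8 and 5 cut sites in all. The remaining named tiles, those of Mmp9, Mmp10, Mmp13 and Fn1 and the other ones of Adam12 and Tnc, overlapped. The tiles were named from a bulk fit that includes these cells. The part of the shift between clusters in the bulk changes was not tested.

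Markers of other cells moved with the groups as well. Summed over gene bodies, the 8 horizontal basal markers stood at 505 to 614 CPM of all cut sites in uninjured libraries and 424 to 499 in injured ones, and the 7 sustentacular markers at 54.8 to 92.6 and 42.0 to 44.3. The 6 mature neuron markers stood at 190 to 251 CPM in uninjured libraries and at 158, 168 and 293 CPM in the injured ones, and the 8 immature neuron markers at 235 to 301 and at 198, 210 and 411, injured replicate 3 being the highest in both. The 6 macrophage markers stood at 46.7 to 59.7 before injury and 62.3 to 78.1 after it, with 2 of the 6 genes apart between the groups in the same direction, and the 6 neutrophil markers at 7.04 to 8.65 and 13.0 to 19.4, with 3 of the 6 apart, all with the injured libraries higher; over all gene bodies 15.6% were apart in that direction and 18.9% in the other. The promoters of the macrophage markers Adgre1 and Tyrobp, and of the general leukocyte marker Ptprc, had 0 cut sites in at least 1 library. Plaur, Plau, Mmp9 and Cd44 are also known from myeloid cells. The part of these cells in the members' changes was not tested. In the horizontal basal-like cells alone the Plaur promoter changed by about as much (log2 1.69, edgeR adjusted p = 0.00026), as did that of Plau (log2 0.64, adjusted p = 0.0198). The Cd44 promoter stayed called in those cells, and that of Mmp9, at its outermost start, was called under no alternative. Those cells include cluster 7, where 4 of the 6 macrophage and 3 of the 6 neutrophil markers were also higher than in the mean of the other clusters. The median log2 differences there were small, at 0.152 and -0.099. In the unnamed cluster 5, outside the subset, 5 of the 6 macrophage and 4 of the 6 neutrophil markers were higher (medians 0.68 and 1.09). So were 4 of 5 endothelial markers (median 1.36). The Plau and Plaur promoters had 0 cut sites in cluster 5 (interval 0 to 2.60 CPM). Whether the subset is free of such cells was not tested.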

How the data were processed

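The deposited fragment files gave, per barcode, each sequenced fragment with its coordinates on mm10 (GRCm38); the whole-number column in them counts read pairs per fragment. The counts used here are cut sites, the 2 ends of each deposited fragment, counted once whatever the read-pair count. Alignment and fragment calling were done by the authors with Cell Ranger 2.0.0 on mm10, per the submitters' processing notes; the deposited peak matrices were not used.

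Cut sites were summed per library over barcodes with at least 2000 fragments, in windows of 1 kb on each side of the outermost GENCODE M21 start, in gene bodies plus 2 kb, in 500-bp tiles and in 10-kb bins. Each table was fitted whole with edgeR 4.0.16 in R 4.3.3 (low counts filtered, TMM factors, robust quasi-likelihood test, injured against uninjured, 3 libraries a group, no covariate), and p-values were adjusted by Benjamini-Hochberg over the table, with 0.05 as the threshold. Every SE is the log2 change over the square root of F. The script was tested on simulated data. Cells with at least 20% of cut sites in open tiles were clustered (TF-IDF, singular value decomposition, Leiden at resolution 0.5) and named from marker lists. No doublet caller was run.

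The members, lists, markers and motifs were chosen with earlier results of these data known. Named were the 9 members, up to 3 called tiles of smallest p per member and direction, the 12 called genes of the related list with the largest change and 7 set genes of that list, and 2 promoters most like each member (mean of at least 5 CPM); a few of these are not reported here. Libraries are labelled biological replicates, and p-values measure the spread between them. Totals of cut sites ran from 14825320 to 44875242. Intervals and limits cover counting error only and count the 2 ends of a fragment as independent, which makes them too narrow. Alternatives were DESeq2 1.42.0, other scalings, filters, windows and barcode sets, each library left out, and the replicate number as a block; leaving out copied and very deep barcodes was added after seeing the data.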

Additional observations from a re-analysis of the deposited data

How the results depend on the processing

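The limits are 3 libraries a group, sparse counts at Mmp9, Mmp10 and Mmp13, and a shift in scale: the median log2 change of all promoters was 0.01 in the fit as reported, -0.54 with factors from 10-kb bins and -0.28 with the total of cut sites. Relative to that median the promoter changes of Plaur (1.71, 1.69 and 1.70) and Adam12 (3.33, 3.30 and 3.32) moved little. Of 1012 values of single genes and tiles under the alternatives, 801 kept direction and side of the threshold, 161 lost the call, 33 gained one and 17 turned direction; the causes were not tested.

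With barcodes thinned to 2000 fragments, which leaves fewer cut sites, 1 promoter, 9 tiles, 0 gene bodies and 2 related promoters were called, beside 0.805% of all promoters, 5.96% of tiles and 1.84% of bodies. Leaving out each library gave 2 to 3 promoters, 23 to 100 tiles, 0 to 3 gene bodies and 0 to 13 related promoters. The tiles numbered 34 without uninjured replicate 1, 37 without uninjured replicate 2, 29 without injured replicate 1, 23 without injured replicate 2 and 100 without injured replicate 3. Those fits called 2.1%, 2.35%, 2.06%, 1.21% and 9.6% of all tiles. Gene bodies were 0 without uninjured replicate 1 or 2 or injured replicate 1 or 2 and 3 without injured replicate 3, where 14.9% of all bodies were called. The fits that gave 0 members called 0, 0, 1 and 0 bodies over the whole genome. Related promoters were 0 without uninjured replicate 1, 3 without uninjured replicate 2, 2 without injured replicate 1, 1 without injured replicate 2 and 13 without injured replicate 3. Of all promoters those fits called 0.689%, 0.837%, 0.708%, 0.561% and 7.59%. Merging adjoining tiles into regions gave 24 called. Gene bodies called were 2 with DESeq2, with the bin factors, at 20% of cut sites in open tiles and at 5000 fragments, and 4 in horizontal basal-like cells, beside 14.9%, 37.1%, 3.94%, 5.73% and 10.6% of all bodies; related promoters were 16 with DESeq2, 38 with the bin factors, 29 with totals, 14 in horizontal basal-like cells and 18 over every annotated start, beside 7.2%, 57.9%, 40.1%, 7.31% and 5.35% of all tested.

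Same-numbered libraries came from mice of the same age in both groups, and both replicates 3 held 34 copied barcodes, but the labels do not say that a number marks a shared litter or day. Their deviations correlated at 0.03, 0.16 and 0.20. Injured replicates 2 and 3 correlated best with the uninjured library of the same number, but injured replicate 1 with uninjured replicate 2 (0.10). The numbers were therefore not taken to pair the samples, though these values do not settle it. At promoters the fitted coefficient of variation between libraries was 0.143, and 0.105 with the replicate block. With the replicate block 4 promoters (that of Mmp10 was gained), 78 tiles, 2 gene bodies and 19 related promoters were called, beside 9.74% of all promoters, 8.06% of tiles and 11.6% of bodies.

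Direction turned with the bin factors at the promoters of Plat (-0.32), Mmp9 (-0.081), Fn1 (-0.38), Mmp14 (-0.50) and Itgb8 (-0.11), the bodies of Mmp9 (-0.034) and Fn1 (-0.25) and the Mmp10 tile 24.4 kb after the start (-0.084). It turned with totals at the promoters of Plat (-0.055), Fn1 (-0.12) and Mmp14 (-0.24), and with thinning at the Adam12 body (-0.037) and the Reck promoter (0.12). The bin factors and totals also moved the median of all promoters below 0. Relative to that median the promoter changes of Plat, Mmp9 and Fn1 were 0.23, 0.40 and 0.16 in the fit as reported. With the bin factors they were 0.21, 0.46 and 0.15, so relative to the median these did not turn. Leaving out each library gave -0.033 (without injured replicate 3) to 0.96 at the Mmp9 promoter, -0.067 (without uninjured replicate 2) to 0.42 at the Fn1 body, -0.11 (without uninjured replicate 2) to 1.38 at the Mmp10 tile, and -0.057 (without uninjured replicate 3) to 0.099 at the Mmp14 promoter.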
